A study of Mus musculus with 12 samples.

Results

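The Serpina3 genes of the mouse encode a closely packed family of serpins on chromosome 12, and their transcripts were followed here through 4 conditions of IEC4.1 cells. Members were chosen by gene symbol from a list of 4 paralogs, Serpina3f, Serpina3g, Serpina3i and Serpina3n. Of these, 3 were found among the 15002 genes of the tables, namely Serpina3g, Serpina3i and Serpina3n, and the expression of Serpina3f was not analysed here. The family was picked because Serpina3i had been seen to rise steeply with IFN-γ in these same libraries, so every value of the members' own response to IFN-γ below is a description and carries no test. The siRNA comparisons played no part in that choice and were tested.

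IEC4.1 is a single line of mouse intestinal epithelial cells, labelled WT in all 12 libraries. Cells of the siR_Ctrl group received a scrambled siRNA, and cells of the siR_Nostrill group received a pool of siRNAs against the long noncoding RNA Nostrill. Each kind of cell was left without IFN-γ or, in the siR_Ctrl + IFN-γ and siR_Nostrill + IFN-γ groups, stimulated with 1 ng/ml IFN-γ for 4 h. The sample labels carry a time of 24 h for every library and do not state the 4 h. The replicates were biological. Each of the 4 groups held 3 libraries, with 17824306 to 19093204 reads counted on genes per library (median 18153496). Nostrill was not analysed here, so the labels could not be checked against the knockdown. Of 14 intestinal epithelial markers 9 were in the tables, and their summed FPKM (a read density scaled for transcript length and sequencing depth) was only 1.32 to 3.10 over the 12 libraries. Krt19 alone of these passed the filter on low counts, and Cdx2, Lgr5 and Fabp2 never exceeded 1 count. The summed FPKM of 7 mesenchymal markers was 2110 to 2656, and it was higher in siR_Ctrl + IFN-γ (2547 to 2656) than in siR_Nostrill + IFN-γ (2247 to 2388), although 0 of the 7 passed edgeR's test between those groups. Most of that gap was Vim (mean 1997 against 1733 FPKM), while Acta2, Pdgfra and Pdgfrb had slightly higher means in siR_Nostrill + IFN-γ. The mesenchymal sum in siR_Ctrl (2203 to 2419) also lay below that in siR_Ctrl + IFN-γ, with 0 of the 7 called by edgeR. In siR_Nostrill (2110 to 2317) it overlapped siR_Nostrill + IFN-γ. The epithelial sum was 1.99 to 2.69 in siR_Ctrl + IFN-γ and 1.32 to 1.86 in siR_Nostrill + IFN-γ. Endothelial (0.01 to 0.18), hepatocyte (0.03 to 0.89) and leukocyte markers (1.37 to 2.58) had low summed FPKM. The part of these marker levels in the Serpina3 values was not tested.

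Serpins are protease inhibitors that work as bait. The target protease cuts an exposed loop of the serpin, the serpin snaps into a new fold, and the protease is left trapped in a dead complex. In humans the corresponding locus encodes alpha-1-antichymotrypsin, while in the mouse it has been duplicated many times and the copies differ most in that loop. Serpina3g, also known as Spi2A, is a cytosolic member that blocks lysosomal cysteine cathepsins and protects cells when lysosomes leak. Serpina3n is a secreted inhibitor of granzyme B and an acute-phase protein, widely used as a marker of reactive astrocytes. IFN-γ signals through receptor-bound JAK kinases to the gamma-activated site (GAS) in promoters, while IRF proteins bind the interferon-stimulated response element (ISRE).

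In the RefSeq annotation of GRCm38.p6 the cluster held 14 Serpina3 genes, 10 protein coding and 4 pseudogenes, over 301611 bases at chr12:104112724-104414334. The listed paralogs all lay on the plus strand, Serpina3f at chr12:104214544-104221129, Serpina3g (gene ID 20715) at chr12:104236147-104241939, Serpina3i (gene ID 628900) at chr12:104263045-104269509 and Serpina3n (gene ID 20716) at chr12:104406646-104414334. Serpina3g and Serpina3i were thus near neighbours in the middle of the cluster, and Serpina3n stood at its far end. The only gene of the tables within 200 kb that was not a member was Serpina12, which never exceeded 1 count in a library.

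**Figure D1:**
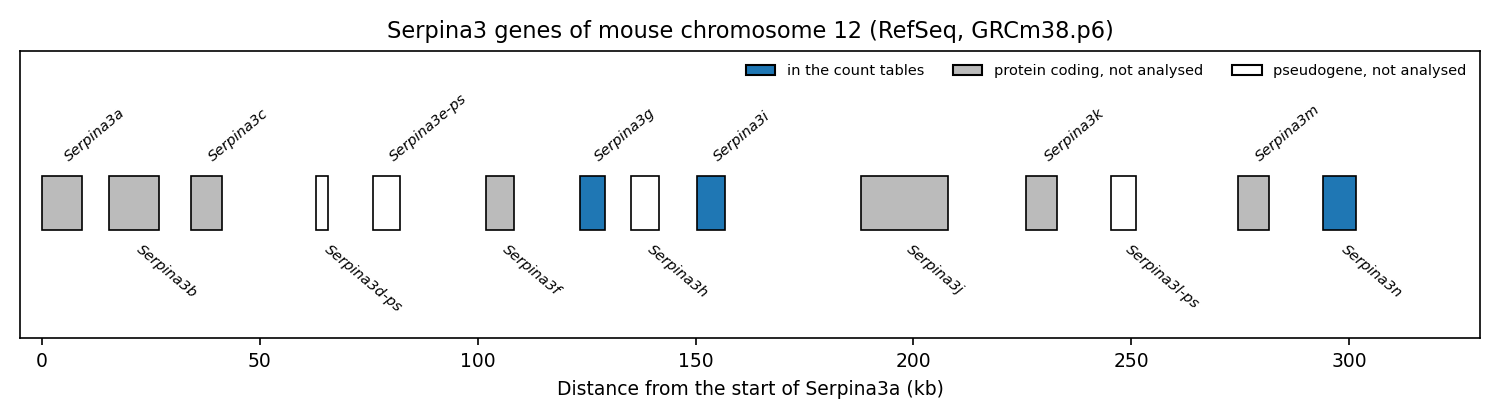
Map of the 14 Serpina3 genes, drawn to scale from the RefSeq annotation, with distance from the start of Serpina3a in kb on the horizontal axis. Filled blue boxes are the 3 genes found in the count tables, grey boxes are other protein-coding genes and open boxes are the 4 pseudogenes. Serpina3g and Serpina3i lie close together and Serpina3n ends the cluster.

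The sequences before the transcript starts of the paralogs were set side by side. RefSeq promoter windows of 300 bases, from 250 before to 50 after a transcript start, were at hand for 8 of the 14 genes. Both strands were searched for the GAS letters TTCNNNGAA, which read the same on either strand, and for the ISRE letters, GAAA followed by any 2 bases and GAAA again. GAS letters occurred in the windows of 3 of the 8 genes, Serpina3f, Serpina3g and Serpina3i, and in 9.55% of all 27025 genes with a window. ISRE letters occurred in the window of Serpina3a alone, and in 3.99% of all genes. A stretch of 30 bases was chosen because it holds the GAS letters of Serpina3g. That stretch and its best ungapped match in each other listed paralog are shown. All are written 5′ to 3′ on the plus strand, with the 9 bases at the place of the GAS letters in capitals.
Serpina3g: aagttatagTTCCCAGAAatcacccggtct
Serpina3i: aagtgcttgTTCCCAGAAatcacccagtct
Serpina3f: cagttctatTTCCTAGAAatcacccatttc
Serpina3n: aaatccatgTTACCAGAAatcatccagtct

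These stretches lay upstream of the annotated genes, at chr12:104236105-104236134 for Serpina3g, chr12:104263011-104263040 for Serpina3i, chr12:104214414-104214443 for Serpina3f and chr12:104406576-104406605 for Serpina3n. The first capital stood 33 bases before the transcript start used for the window in Serpina3g, 102 in Serpina3i, 121 in Serpina3f (210 for a further annotated start) and 123 in Serpina3n. Counted from the first capital and with Serpina3g as the reference, Serpina3i had the same 9 bases, Serpina3f carried C5T, which keeps the GAS letters, and Serpina3n carried C3A, which breaks them. Serpina3c carried the same C3A. Over the 30 bases, Serpina3i matched Serpina3g at 26, Serpina3f at 22 and Serpina3n at 22. Over the aligned bases of the promoter windows Serpina3g was 83.7% identical to Serpina3f, 79.7% identical to Serpina3i and 69.6% identical to Serpina3n. Gaps and unaligned ends were left out of these values. The number of bases aligned was not recorded and may differ between pairs, so the pairs are not ranked. Such matches describe letters only, and binding was not measured in these data.

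Serpina3g was by far the most abundant member and moved from near absence to a moderate level with IFN-γ. In siR_Ctrl cells its FPKM was 0.44, 0.09 and 0.57 in the 3 libraries (11, 2 and 15 counts). In siR_Ctrl + IFN-γ cells it was 26.91, 28.25 and 23.71 (758, 811 and 702 counts). Every library with IFN-γ lay far above every library without it, and the CPM of the groups lay apart in that direction for 9.57% of all genes tested. The group means were 0.367 ± 0.248 and 26.3 ± 2.33 FPKM (SD, n = 3), which placed Serpina3g at rank 11318 of 15002 genes without IFN-γ and at rank 3562 with it. The pooled counts per total count of the library (CPM) were 78.0-fold higher with IFN-γ, with an exact 95% interval of 53.8 to 118 that, like the other intervals on pooled counts, covers counting error only. In bulk RNA a change in the share of cells that express a gene and a change in the RNA per cell cannot be told apart.

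With the Nostrill siRNA the same picture held. Serpina3g had 0.17, 0.35 and 0.22 FPKM in siR_Nostrill cells (5, 8 and 6 counts) and 24.3, 21.97 and 22.35 FPKM in siR_Nostrill + IFN-γ cells (668, 593 and 622 counts). The groups again stood wide apart, as they did in that direction for 18.5% of all genes. The means were 0.247 ± 0.0929 and 22.9 ± 1.25 FPKM (SD, n = 3), and the pooled CPM ratio was 99.5 (exact 95% interval 63.5 to 166). In the fit over all genes the log2 difference with IFN-γ was 6.34 (SE 0.30) in siR_Ctrl cells, the 22nd highest of 11900 genes, and 6.59 (SE 0.31) in siR_Nostrill cells, the 16th highest. On the log2(FPKM + 1) scale, which shrinks the change of a gene near 0, it was 4.33 and 4.26.

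Serpina3i went from no reads to a low level. Its FPKM was 0 in all 3 libraries of siR_Ctrl cells, and 1.43, 1.37 and 1.55 in siR_Ctrl + IFN-γ cells (41, 36 and 44 counts). It was 0, 0 and 0.03 in siR_Nostrill cells, the last from 1 count, and 1.49, 2.29 and 1.39 in siR_Nostrill + IFN-γ cells (34, 52 and 37 counts). Hence nearly all reads of Serpina3i came from cells given IFN-γ. Against a floor of 3 counts over the whole group, the pooled CPM of Serpina3i was at least 38.8-fold higher with IFN-γ in siR_Ctrl cells. In siR_Nostrill cells the pooled ratio rested on 123 counts against 1 and was 123, with an exact 95% interval of 21.8 to 4917. Fitted fold changes of Serpina3i across IFN-γ depend on the prior count added to such zeros and are not given.

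Serpina3n stayed at the edge of detection in all conditions. It had 0 to 2 counts in each of the 12 libraries, and its pooled counts were 1 in siR_Ctrl, 2 in siR_Ctrl + IFN-γ, 2 in siR_Nostrill and 1 in siR_Nostrill + IFN-γ. Each group thus lay under the level that 3 counts over a group would give, 0.0531 to 0.0555 CPM, and a response to IFN-γ or to the siRNA was not detectable at this depth. It failed the filter on low counts and entered no test.

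**Figure D2:**
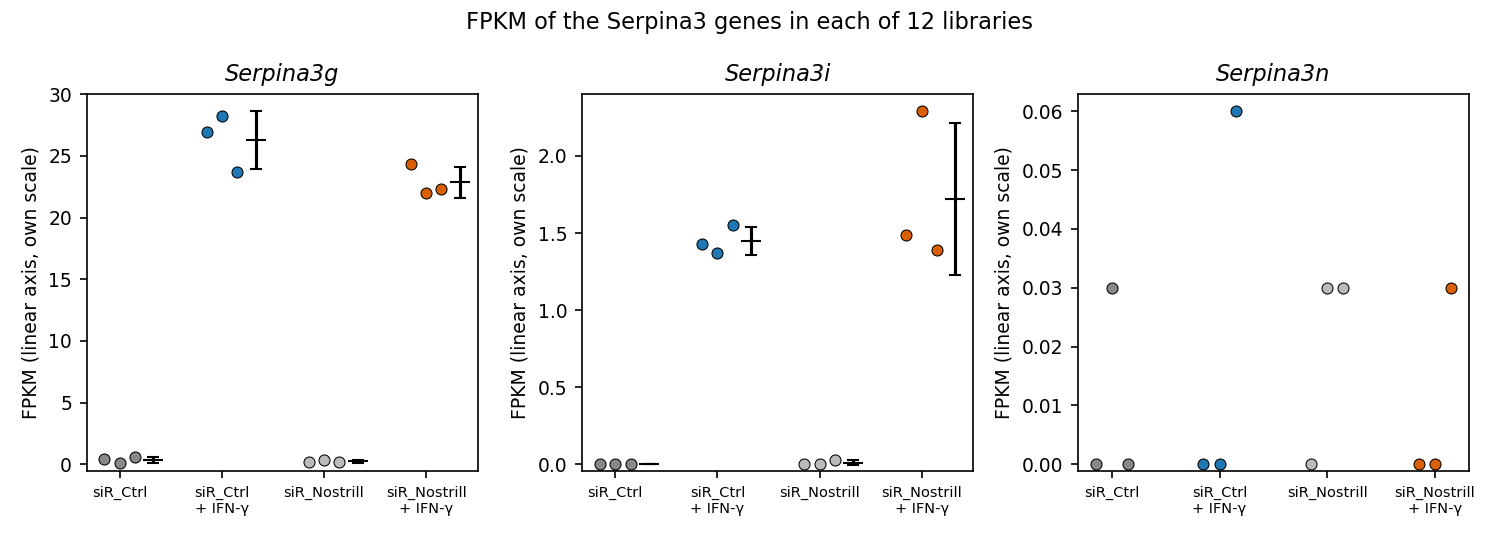
FPKM of Serpina3g, Serpina3i and Serpina3n in each of the 12 libraries, on linear axes with a separate scale for each gene. Points are libraries, and the bars beside them for Serpina3g and Serpina3i are the mean ± SD of 3 libraries. Serpina3g reaches 21.97 to 28.25 FPKM with IFN-γ, Serpina3i reaches 1.37 to 2.29, and Serpina3n stays at or below 0.06 throughout.

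Ordered by FPKM, Serpina3g was the highest member in each of the 4 groups, and its lowest library exceeded the highest library of the other members in the same group. With IFN-γ, Serpina3i came second in both groups, and its libraries did not overlap those of Serpina3n. Without IFN-γ, Serpina3i and Serpina3n overlapped near 0 and could not be ordered. With IFN-γ the FPKM of Serpina3g was 9.59 to 20.6 times that of Serpina3i over the 6 libraries, with a median of 16.2.

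Serpina3g and Serpina3i passed the filter on low counts largely through the groups with IFN-γ, and the contrasts with IFN-γ chose the members, so no calls across IFN-γ are given for them.

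The paralogs resemble each other enough to share reads. Within the longest coding transcripts of GENCODE M21, Serpina3g and Serpina3i were 87.4% identical over 1792 aligned bases, and Serpina3g and Serpina3n were 80.4% identical. Of the 1704 windows of 100 bases in Serpina3g, the length of the sequenced reads, 79 (4.64%) occurred unchanged in another Serpina3 gene, 36 of them (2.11%) in Serpina3i, 36 (2.11%) in Serpina3h, 22 in Serpina3e-ps, 20 in Serpina3f and 1 in Serpina3n, some in more than one. In Serpina3i 49 of 2101 windows (2.33%) were shared, and in Serpina3n 4 of 1965 (0.204%). Most windows could therefore tell the paralogs apart, though a read with sequencing errors could not be followed here.

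The deposited counts of the members were not all whole numbers. With IFN-γ the estimated count of Serpina3i was not whole, within a tolerance of 1e-05, in 6 of 6 libraries, that of Serpina3g in 4 of 6 and that of Serpina3n in 1 of 6. Without IFN-γ, where none of them had more than 15 counts, 0 of 6 libraries had a count that was not whole for any of the 3. Over all genes 90.6% to 91.6% of the values in a library were whole, values of 0 included. Serpina3i took 5.13%, 4.25% and 5.90% of the counts of the pair in siR_Ctrl + IFN-γ cells, and 4.84%, 8.06% and 5.61% in siR_Nostrill + IFN-γ cells. The share was highest in replicate 2 of siR_Nostrill + IFN-γ, where its 95% Wilson interval was 6.20% to 10.4%, and the groups overlapped. Counts of Serpina3g and Serpina3i are therefore uncertain to the extent that reads were divided between them or with other Serpina3 genes, and how far that reached was not tested. Their share of the pair and the 2.11% of Serpina3g windows that recur in Serpina3i are given side by side only.

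**Figure D3:**
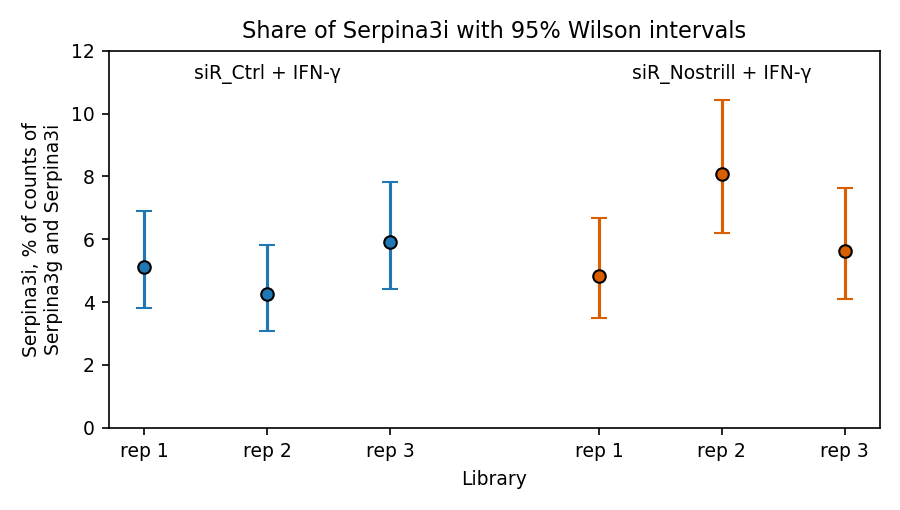
Share of Serpina3i among the counts of Serpina3g and Serpina3i in the 6 libraries with IFN-γ, in percent, with 95% Wilson intervals that cover counting error only. Shares run from 4.25% to 8.06%, and the siRNA groups overlap.

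The next question was whether the Nostrill siRNA changed the members in cells without IFN-γ. Serpina3g had 11, 2 and 15 counts in siR_Ctrl cells and 5, 8 and 6 in siR_Nostrill cells, and the groups overlapped. Its log2 difference was -0.52 (SE 0.50, 95% interval -1.61 to 0.56), and edgeR gave an adjusted p of 0.539. The interval reaches from a marked decrease to a clear increase, so counts this low could show only a large change. Without siR_Ctrl replicate 3 the difference was -0.0059, and without siR_Ctrl replicate 2 it was -0.97, at an unadjusted p under 0.05 but uncalled. Serpina3i, with 0 counts against 1, was under the floor in both groups and is given no fold. Serpina3g passed the filter through the libraries with IFN-γ and did not pass it in a fit of only these 2 groups, so the lack of a call, in a comparison where 0.218% of all genes were called, says little about it.

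The comparison with IFN-γ asks whether Nostrill siRNA alters the level of the members in stimulated cells, where Serpina3g had 593 to 811 counts per library and Serpina3i 34 to 52, while Serpina3n had at most 2. Serpina3g was at 40.7, 42.5 and 37.4 CPM in siR_Ctrl + IFN-γ cells and at 36.7, 33.3 and 34.4 CPM in siR_Nostrill + IFN-γ cells. In CPM the siR_Nostrill libraries were the lower ones and the groups did not overlap. With totals scaled by TMM the groups also did not overlap, at 36.8 to 47.0 against 32.6 to 35.8 CPM. On that TMM scale the groups lay apart in this direction for 10.4% of all genes tested. In FPKM (23.71 to 28.25 against 21.97 to 24.3) and in TPM (length-scaled like FPKM but with one total in all libraries, 35.54 to 38.67 against 32.01 to 37.54) the groups overlapped. The log2 difference of Serpina3g was -0.28 (SE 0.20, 95% interval -0.71 to 0.15), with an adjusted p of 0.556 by edgeR. The pooled CPM ratio was 0.866, and its exact 95% interval of 0.815 to 0.921 leaves out the spread between replicates, which the edgeR interval includes.

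**Figure D4:**
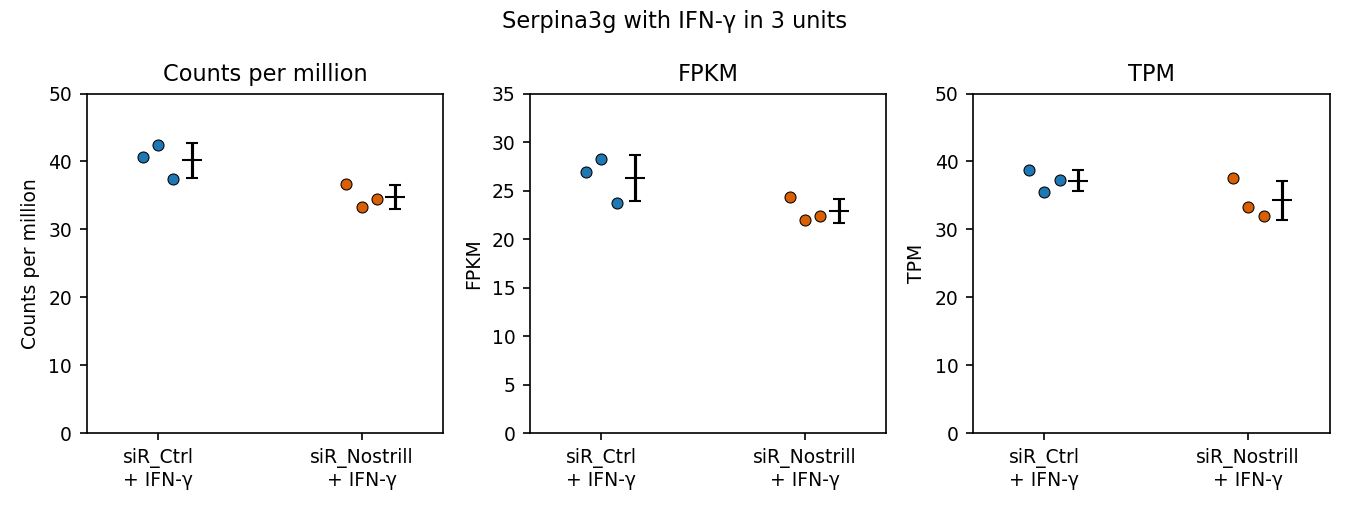
Serpina3g in the 6 libraries with IFN-γ in 3 units, CPM, FPKM and TPM, on linear axes from 0. Points are libraries and bars are the mean ± SD of 3 libraries. The groups stand apart in CPM and overlap in FPKM and TPM.

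For Serpina3i the groups with IFN-γ could not be told apart in counts. It had 41, 36 and 44 counts in siR_Ctrl + IFN-γ cells against 34, 52 and 37 in siR_Nostrill + IFN-γ cells, and the groups overlapped. Its log2 difference was 0.024 (SE 0.24, 95% interval -0.52 to 0.56), with an adjusted p of 0.975 by edgeR, and the pooled CPM ratio was 1.06 (exact 95% interval 0.820 to 1.38). The sign of this small value rested on single libraries, since it was -0.02 without siR_Ctrl + IFN-γ replicate 2 and -0.19 without siR_Nostrill + IFN-γ replicate 2. In all, edgeR called 0 of the 2 members tested with IFN-γ, beside 0.429% of all genes, a share that rests on 51 genes, a number that ran from 0 to 72 with 1 library left out and was 596 by DESeq2 and 1540 with the length trend removed. At an unadjusted p under 0.05 edgeR had 0 of them on all 12 libraries, and 1 with only the groups compared or without siR_Ctrl replicate 2. DESeq2 also had 1, Serpina3g, whose adjusted p was 0.296 by DESeq2.

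**Figure D5:**
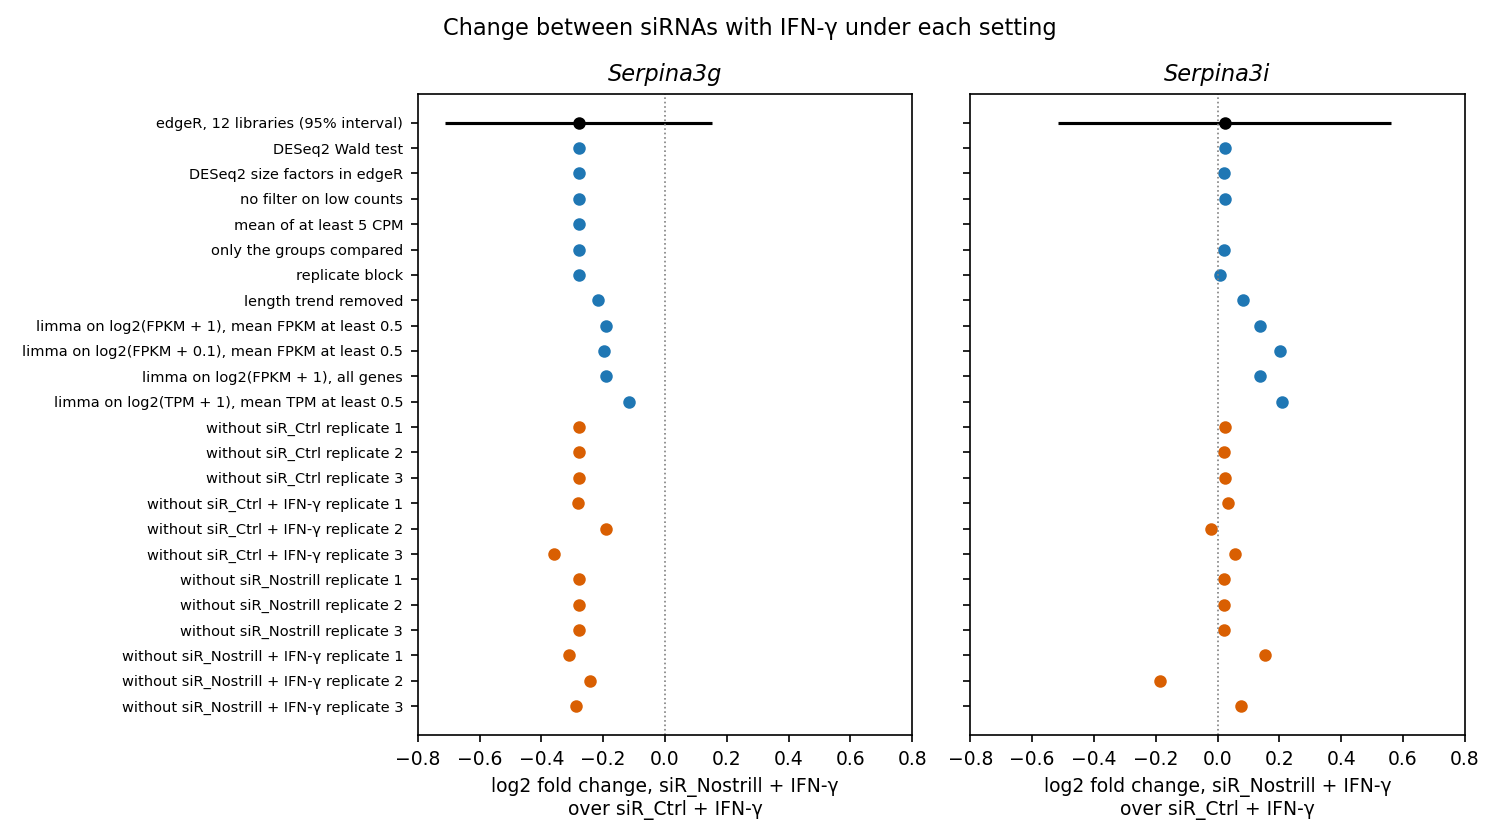
Log2 fold change of siR_Nostrill + IFN-γ over siR_Ctrl + IFN-γ for Serpina3g and Serpina3i under each setting. The black point is edgeR on all 12 libraries with its 95% interval, blue points are other tools, units and filters, and orange points leave out 1 library each. Serpina3g runs from -0.36 to -0.12 and Serpina3i from -0.19 to 0.21, with no point for Serpina3i where a mean of at least 5 CPM was required.

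Whether IFN-γ acted differently under the siRNAs was addressed with an interaction term. For Serpina3g, which had 2 to 15 counts in the libraries without IFN-γ and passed the filter through those with it, the term is given as a description, 0.24 on the log2 scale (SE 0.52, 95% interval -0.91 to 1.39). It turned to -0.27 without siR_Ctrl replicate 3 and to -0.072 on the log2(FPKM + 1) scale. For Serpina3i the term rests on 0 and 1 counts without IFN-γ and is not given. Across all 11900 genes edgeR called 0 for the interaction (percent called 0), with 1277 (10.7%) at an unadjusted p under 0.05, and DESeq2 also called 0. The siRNA and IFN-γ comparisons share libraries, so their values for a member are not independent of each other.

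Genes whose pattern over the 12 libraries lay closest to that of each member were searched for among 10696 genes, by the root mean square difference in log2 CPM after centring each gene on its own mean. For Serpina3g these were Gbp2 (0.374), a guanylate-binding GTPase, Ifi47 (0.431), an immunity-related GTPase, and Mpeg1 (0.447), which encodes the pore-forming protein perforin-2. For Serpina3i they were Gbp9 (0.250), another guanylate-binding protein, Irgm1 (0.281), an immunity-related GTPase, and Parp14 (0.289), an ADP-ribosyltransferase. The prior count of 2 used for this measure sets the amplitude of Serpina3i, which was at 0 in 5 of the 6 libraries without IFN-γ, and shrinks that of Serpina3g and of Mpeg1, which were also low there, so the nearest genes of both members depend on that setting. The levels of these genes were far from alike, since mean FPKM in siR_Ctrl + IFN-γ cells was 413 for Gbp2, 130 for Ifi47, 2.29 for Mpeg1, 18.5 for Gbp9, 256 for Irgm1 and 37.4 for Parp14. The likeness is one of shape over libraries, and depth and base composition are shared by all genes of a library.

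Of 14 clade A serpins outside the cluster 3 were in the tables, Serpina1f, Serpina12 and Serpina16, each with at most 1 count in a library, and the other 11 were not analysed here. Among 27 serpins of other clades 12 passed the filter on low counts, and with IFN-γ 3 rose and 0 fell under each siRNA, beside 4.71% of all 11900 genes tested that edgeR called higher in siR_Ctrl cells and 5.24% in siR_Nostrill cells. Their median log2 difference was 0.27 in siR_Ctrl cells and 0.14 in siR_Nostrill cells, beside medians over all genes tested of -0.0085 and -0.0006. Serpinb1a, an inhibitor of neutrophil proteases, rose from 1.65 ± 0.227 to 6.55 ± 1.01 FPKM in siR_Ctrl cells (SD, n = 3), a log2 difference of 2.09 (SE 0.18) with an adjusted p of 1.37e-05 by edgeR. Serping1, the C1 inhibitor of the complement and contact systems, rose from 0.223 ± 0.0839 to 1.04 ± 0.195 FPKM, a log2 difference of 2.29 (SE 0.32) with an adjusted p of 0.000783. Serpinb9, an intracellular inhibitor of granzyme B, rose from 4.04 ± 0.742 to 8.16 ± 1.39 FPKM, a log2 difference of 1.09 (SE 0.12) with an adjusted p of 7.21e-05. The call of Serpinb9 was lost on the log2(TPM + 1) scale, and Serping1 was not tested where a mean of at least 5 CPM was required. In siR_Nostrill cells the same 3 genes rose by log2 differences of 1.68, 1.76 and 1.46. These changes were well short of the 6.34 and 6.59 of Serpina3g, a gap between genes that was not tested. The Serpina3 family was picked for the rise of Serpina3i in this same contrast, so nothing is read from the gap.

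Serpinb9 was also the only one of these 12 serpins called between the siRNAs, beside 0.143% of all genes tested that fell without IFN-γ. In those cells it was at 4.04 ± 0.742 FPKM in siR_Ctrl cells and 2.29 ± 0.0737 in siR_Nostrill cells (SD, n = 3), a log2 difference of -0.77 (SE 0.12) with an adjusted p of 0.0381 by edgeR. The call held without siR_Ctrl + IFN-γ replicate 2 or 3 or siR_Nostrill + IFN-γ replicate 3, and was lost without any of the other 9 libraries, in a fit of only the groups compared, with the replicate block and in all 4 limma settings. Over the 12 fits that left out 1 library the log2 difference ran from -0.84 to -0.70 and the adjusted p from 0.0369 to 0.175. With IFN-γ its log2 difference was -0.40 (SE 0.11) and its adjusted p was 0.122.

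Of 11 genes of IFN-γ signalling 10 passed the filter. With IFN-γ 6 rose in siR_Ctrl cells and 7 in siR_Nostrill cells, and 0 fell in either, beside 4.71% and 5.24% of all genes tested that rose, with median log2 differences of 2.11 and 1.89. Jak2 was called in siR_Nostrill cells (log2 difference 0.64, SE 0.13, adjusted p 0.0104), but not without siR_Nostrill replicate 2 or siR_Nostrill + IFN-γ replicate 2 (adjusted p up to 0.0663) and not on the log2(TPM + 1) scale. Irf1, an interferon-induced transcription factor, went from 50.9 ± 4.05 to 578 ± 15.6 FPKM in siR_Ctrl cells (SD, n = 3), a log2 difference of 3.57 (SE 0.10) with an adjusted p of 8.50e-10 by edgeR. Socs1, a feedback inhibitor of the JAKs, went from 11.7 ± 1.37 to 91.0 ± 7.68 FPKM, a log2 difference of 3.0 (SE 0.16) with an adjusted p of 1.22e-07. Socs3, its relative, had a log2 difference of 2.47 (SE 0.09) with an adjusted p of 6.16e-09.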

How the data were processed

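RNA of 12 IEC4.1 cultures was sequenced as paired 100-base reads. After filtering by SOAPnuke, the authors used HISAT2 and Bowtie2 for alignment to GRCm38.p6. How reads were assigned to genes, and by which program, is not given in the sources. The authors deposited an estimated count for each gene and library, which is not normalized, and FPKM and TPM values, where their methods name RPKM. FPKM summed to between 570935 and 794809 per library, so FPKM levels are not on one total across libraries.

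Estimated counts were rounded to whole numbers and fitted for all 12 libraries and 4 groups with edgeR 4.0.16 in R 4.3.3 (quasi-likelihood test, TMM, default filter on low counts, Benjamini-Hochberg adjustment over 11900 genes, threshold 0.05). Comparisons were IFN-γ within each siRNA (for the members described only), siR_Nostrill against siR_Ctrl without and with IFN-γ, and the interaction. CPM of a library is its estimated count scaled to the total count of the library, and pooled CPM uses the rounded counts. Shares of all genes whose groups lay apart in CPM used totals scaled by TMM. So did the log2 CPM of the search for nearest genes. Intervals on pooled count ratios are exact 95% intervals, and shares have Wilson intervals. A floor of 3 counts over a group was chosen. At the depth of 17824306 to 19093204 reads per library it stands for 0.0531 to 0.0555 CPM. The script was tested on simulated counts.

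Named genes were the members, the 3 genes nearest each in pattern, and from each list of serpins, proteases, IFN-γ signalling and acute-phase genes up to 4 called genes per direction with the largest change. Outside this rule Jak2, Lcn2, Saa3, Ctsl, Ctsb and the marker genes were named after their values were seen. The members, lists and rule were chosen with earlier results of these data known. Alternatives were DESeq2 1.42.0, its size factors in edgeR, no filter or a minimum mean of 5 CPM, a fit of only the groups compared, a replicate block, removal of the length trend (lowess, span 0.3), limma 3.58.1 on log2(FPKM + 1), log2(FPKM + 0.1) and, chosen after seeing the data, log2(TPM + 1) (mean of at least 0.5, or all genes), and each library left out. Promoter sequences came from RefSeq tables of GRCm38.p6 and transcripts from GENCODE M21. One gene of the IFN-γ signalling list is not reported here by name.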

Additional observations from a re-analysis of the deposited data

How the results depend on the processing

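With IFN-γ the log2 difference of Serpina3g between the siRNAs kept its sign and stayed uncalled under all settings run. It ran from -0.36 to -0.19 when 1 library was left out (adjusted p 0.296 to 0.814 by edgeR) and from -0.28 to -0.12 under the other 11. Without IFN-γ it ran from -0.97 to -0.0059 and from -0.66 to -0.12. There Serpina3g had 2 to 15 counts per library and passed the filter through the libraries with IFN-γ. Nothing is therefore read from its sign or lack of a call without IFN-γ. The log2 difference of Serpina3i with IFN-γ ran from -0.19 to 0.15 over the libraries left out, negative without siR_Ctrl + IFN-γ replicate 2 (-0.02) or siR_Nostrill + IFN-γ replicate 2 (-0.19), and from 0.0087 to 0.21 otherwise. The interaction of Serpina3g ran from -0.27 to 0.69 over the libraries left out and was reversed on log2(FPKM + 1), at -0.072 both with the filter and for all genes. The cause was not tested.

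Replicate numbers are shared between groups, but deviations of same-numbered libraries correlated from -0.495 to 0.725 (median -0.092, 18 pairs), so the numbers were not taken to pair the samples. With a replicate block Serpina3g was at -0.28 with IFN-γ and at -0.52 without, Serpina3i at 0.0087, and the count of genes called with IFN-γ went from 51 to 32.

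Of the genes called, the 649 with IFN-γ against none in siR_Ctrl cells became 341 with only the groups compared, 1320 with the length trend removed and 329 on log2(TPM + 1), and 489 to 589 with 1 library left out. In siR_Nostrill cells 807 became 1330 by DESeq2, 1997 with only the groups compared and 2257 with the trend removed, and 491 to 1138 with 1 library left out. Between the siRNAs without IFN-γ 26 became 265 by DESeq2, 0 with only the groups compared, 404 with the trend removed, 17 on log2(FPKM + 1) over all genes and 8 on log2(TPM + 1), and 0 to 37 with 1 library left out. With IFN-γ 51 became 596 by DESeq2, 30 without a filter, 105 with a mean of at least 5 CPM, 0 with only the groups compared, 1540 with the trend removed, 135 and 114 on log2(FPKM + 1) and log2(FPKM + 0.1), 118 on log2(FPKM + 1) over all genes, and 0 to 72 with 1 library left out. The cause was not tested. The interaction had 0 in every setting run.

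Depth limits Serpina3n in all groups and Serpina3i without IFN-γ. With only the groups compared, no member passed the filter without IFN-γ and the interaction was not run.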

Other observations

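Of 21 listed proteases of the kinds that serpins of this clade are known to meet, 14 were in the tables and 11 passed the filter. With IFN-γ 0 were called in siR_Ctrl cells and 2 fell in siR_Nostrill cells, beside 0.748% and 1.55% of all genes tested that fell. Plau, the urokinase-type plasminogen activator, fell from 27.9 ± 4.11 to 17.5 ± 2.93 FPKM in siR_Nostrill cells (SD, n = 3), a log2 difference of -0.69 (SE 0.13) with an adjusted p of 0.00626 by edgeR. In siR_Ctrl cells its log2 difference was -0.42 (SE 0.13) with an adjusted p of 0.0967, and on the log2(TPM + 1) scale neither Plau nor Plat was called. Plat, the tissue-type activator, had a log2 difference of -0.58 (SE 0.14) in siR_Nostrill cells with an adjusted p of 0.0278, and the call was lost without siR_Nostrill replicate 2 or 3 or siR_Nostrill + IFN-γ replicate 1 or 2 (adjusted p up to 0.131) and in all 4 limma settings. Among the lysosomal cysteine cathepsins, Ctsl was at 542 ± 56.9 FPKM in siR_Ctrl cells and 479 ± 34.9 in siR_Ctrl + IFN-γ cells, and Ctsb at 303 ± 36.5 and 319 ± 23.4. These cathepsins were chosen after their values were seen, and neither was called between any of the groups compared.

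Of 20 acute-phase genes and their regulators, 11 passed the filter, and 3 rose with IFN-γ under both siRNAs, beside 4.71% of all genes tested that rose in siR_Ctrl cells and 5.24% in siR_Nostrill cells. Cebpd, a transcription factor of the acute-phase response, rose from 11.2 ± 1.15 to 43.9 ± 4.64 FPKM in siR_Ctrl cells (SD, n = 3), a log2 difference of 2.05 (SE 0.15) with an adjusted p of 2.19e-06 by edgeR. Osmr, the oncostatin M receptor, had a log2 difference of 1.78 (SE 0.24) with an adjusted p of 0.000593, and the cytokine gene Il6 had 1.58 (SE 0.30) with 0.00730. The acute-phase proteins Lcn2 and Saa3 were not called, with log2 differences of 0.08 (SE 0.33) and 0.17 (SE 0.31) in siR_Ctrl cells and 0.70 (SE 0.32) and 0.58 (SE 0.31) in siR_Nostrill cells, and Serpina3n, often listed beside them, was under the floor in every group. Between the siRNAs, 2 genes of IFN-γ signalling were called, Irf9 without IFN-γ (log2 difference 0.58, SE 0.09, adjusted p 0.0357) and Ifngr2 with IFN-γ (0.54, SE 0.09, adjusted p 0.0375), beside 0.0756% and 0.185% of all genes tested that were called higher. Each call was lost in most fits that left out 1 library, with Irf9 kept in 2 of 12 (without siR_Ctrl + IFN-γ replicate 2 or 3) and Ifngr2 in 3 of 12 (without siR_Ctrl replicate 1 or siR_Nostrill replicate 1 or 3), and the adjusted p rose to as much as 0.175 for both. Both calls were also lost with only the groups compared, with the replicate block and on log2(TPM + 1), and that of Irf9 in the other 3 limma settings too.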
